A study of Mus musculus with 25 samples.

Results

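The insulin-like growth factor (IGF) genes described here are 9 genes of the mouse Achilles tendon: the ligand gene Igf1, the receptor genes Igf1r and Igf2r, and the binding protein genes Igfbp2, Igfbp3, Igfbp4, Igfbp5, Igfbp6 and Igfbp7. They were taken by symbol from a table of 55487 genes, and all 9 were found and passed the filter on low counts that left 19155 genes for testing. None of the 9 passed the test for AMPK genotype, for wheel running or for their interaction. Igfbp3 and Igf1r were lower in male than in female tendons, by 1.35 ± 0.19 and 0.31 ± 0.06 on the log2 scale (SE).

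IGF1 is a secreted growth factor that signals through the receptor tyrosine kinase encoded by Igf1r. IGF binding proteins hold the ligand in tissue fluid and matrix, prolong or limit its access to the receptor, and release it when proteases cleave them. In tendon, IGF1 is known as a stimulus of tenocyte growth and collagen synthesis. AMPK, the energy-sensing kinase altered in this study, is known to oppose growth signalling downstream of this receptor.

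The study measured total RNA from Achilles tendons of mice 3 months old with RNA sequencing. The 4 groups were AMPKcKO (cKO) wheel runners (n = 6), wild type (WT) wheel runners (n = 6), cKO mice at cage activity (n = 6) and WT mice at cage activity (n = 7). Each group held 3 males and 3 females, except that WT cage mice were 3 males and 4 females. Prkaa1, which encodes the catalytic α1 subunit of AMPK, is the gene lost in cKO mice according to the title of the series. The Cre driver, the deleted exons, the strain, the running distance and the length of running are not given in the sources used here, nor whether each library came from a separate animal, so p-values measure the spread between these libraries.

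Library totals were 13193228 to 45724244 counts, with a median of 24538109. The targeted gene Prkaa1 averaged 18.6 ± 2.32 CPM, the count scaled to library size, in cKO runners against 23.1 ± 6.05 CPM in WT runners, and 17.5 ± 2.38 CPM in cKO cage mice against 23.0 ± 5.94 CPM in WT cage mice (SD); the difference did not pass in runners (edgeR adjusted p = 0.464) or at cage activity (adjusted p = 1). Cre reads were at 0 in every WT library and in 1 of the 12 cKO libraries, cKO cage female replicate 3, and an eGFP entry stood at 119 CPM in 1 WT library, WT running male replicate 2. On Cre, cKO cage female replicate 3 goes against its label, and its eGFP reads were at 0 as well. WT running male replicate 2 had no Cre reads, as its label would have it, and stood apart from the other WT libraries on eGFP alone. Results are given below without these 2 libraries where that changes a call. The eGFP entry was also near 0 in 3 further cKO cage libraries (1.13, 1.17 and 2.60 CPM), so that it stood at 84.3 to 264 CPM in 6 of 6 cKO runners but above 100 CPM in 2 of 6 cKO cage mice, and in cKO its carriage and running are partly confounded. WT running female replicate 2 and WT running male replicate 3 stood apart on the second principal component. Sex labels matched Xist, the transcript of the silenced X chromosome, in all 25 libraries, with 0 to 1.07 CPM in males and 388 to 602 CPM in females. All 8 tenocyte markers were detected in every library, summing to 4875 to 24314 CPM, and the 10 skeletal muscle fibre genes summed to 9635 to 80602 CPM, so muscle RNA was present in every tendon sample in varying amount.

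The binding proteins dominated the IGF transcripts of the tendon. Levels of different genes were compared in FPKM, which divides a count by transcript length and by library size. Igfbp7 had the highest median, 206 FPKM, followed by Igfbp6 at 197 FPKM, and the order of these neighbours was not firm, since Igfbp7 was above Igfbp6 in 12 of 25 libraries. Igfbp5 at 111 FPKM and Igfbp4 at 110.3 FPKM came next and also changed places, Igfbp5 being above Igfbp4 in 17 of 25 libraries. Igf1 followed at 41.7 FPKM, above Igfbp3 at 24.7 FPKM in 21 of 25 libraries. Igf2r stood at 19.5 FPKM, below Igfbp3 in 16 of 25 libraries. Igf1r, at 6.59 FPKM, was below Igf2r in 25 of 25 libraries. Igfbp2 was the lowest at 0.24 FPKM, with 0 to 81 counts per library and no count in 4 libraries, where a count of 0 allows up to 3 counts.

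**Figure D1:**
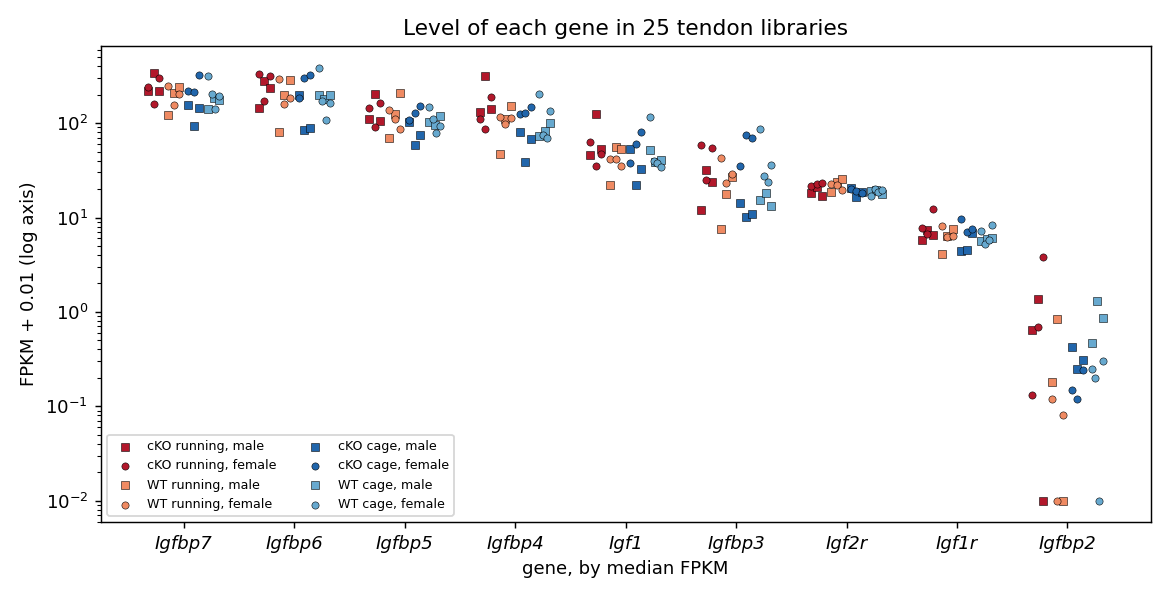
Level of the 9 genes in each of 25 libraries, in FPKM with 0.01 added so that zeros can be drawn (log axis), ordered by median. Red and orange are runners and blues cage mice, squares males and circles females; Igfbp7 and Igfbp6 lie highest with medians of 206 and 197 FPKM and Igfbp2 lowest at 0.24 FPKM.

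Of the summed FPKM of the 6 binding proteins, Igfbp6 made up a median of 30.8%, Igfbp7 29.9%, Igfbp5 17.3%, Igfbp4 16.5%, Igfbp3 4.27% and Igfbp2 0.0468%. IGFBP6 is known to prefer IGF2 over IGF1, and IGFBP7 binds IGFs with low affinity. The summed binding protein level was 827 ± 248 FPKM in cKO runners, 650 ± 210 FPKM in WT runners, 628 ± 276 FPKM in cKO cage mice and 639 ± 232 FPKM in WT cage mice (SD). The ranges of the 4 groups overlapped.

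Igf2 and Igfbp1, outside the 9, give context for these levels. Igf2, the fetal ligand, averaged 29.1 ± 4.54 CPM in cKO runners, 41.3 ± 10.4 CPM in WT runners, 34.5 ± 11.6 CPM in cKO cage mice and 33.3 ± 5.73 CPM in WT cage mice, and it did not pass in cKO against WT runners (log2 fold change -0.53 ± 0.17, edgeR adjusted p = 0.387). Igfbp1, a binding protein made chiefly by liver, had no counts in 24 libraries and 4 counts in the remaining one, WT running female replicate 1.

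Positions are on the GRCm38 build named in the submitters' processing notes, with spans from GENCODE. Igf1 spans chr10:87858265-87937042 (+), Igf1r chr7:67952827-68233668 (+) and Igf2r chr17:12682406-12769664 (-). Igfbp3 spans chr11:7206086-7213923 (-), beside Igfbp1 at a distance of 3539 bases. Igfbp4 spans chr11:99041244-99054392 (+), Igfbp6 chr15:102144362-102149511 (+) and Igfbp7 chr5:77349240-77408041 (-). Igfbp2, at chr1:72824503-72852474 (+), and Igfbp5, at chr1:72857932-72874884 (-), are neighbours 5457 bases apart. The strand setting of the counting is not given in the sources used here, so reads of Igf2r cannot be told apart from those of its antisense transcript Airn within introns (0 shared exon bases), nor can those of Igfbp7 and Polr2b, on the opposite strand, over the 85 exon bases they share.

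The question of the study's design was whether wheel running and the AMPK genotype alter the tendon transcriptome, alone or together. For the 9 IGF genes, no comparison of this kind passed in edgeR's quasi-likelihood test after Benjamini-Hochberg adjustment over all tested genes. The background was low as well. In cKO against WT runners, 0 of 9 passed against 0% of all genes, and the same counts held for cKO against WT at cage activity (0 of 9, 0%) and for the interaction between genotype and running (0 of 9, 0%). Averaged over both activities, 0 of 9 passed for genotype against 0.00522% of all genes. For running against cage activity, 0 of 9 passed in cKO against 0.0418%, 0 of 9 in WT against 0.131%, and 0 of 9 averaged over both genotypes against 1.43%. At an unadjusted p under 0.05, the count of the 9 was 1 in runners (Igfbp2, against 11.3% of all genes), 0 at cage activity (1.13%) and 0 for the mean genotype difference (3.78%). It was 1 for running in cKO (Igfbp2, 13.6%), 1 for running in WT (Igf1, 9.74%), 0 for the mean running difference (14.9%) and 1 for the interaction (Igfbp2, 7.19%). DESeq2 and limma-voom also called 0 of the 9 in each of these 7 comparisons, DESeq2 giving no adjusted p for Igfbp2 in 4 of them.

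**Figure D2:**
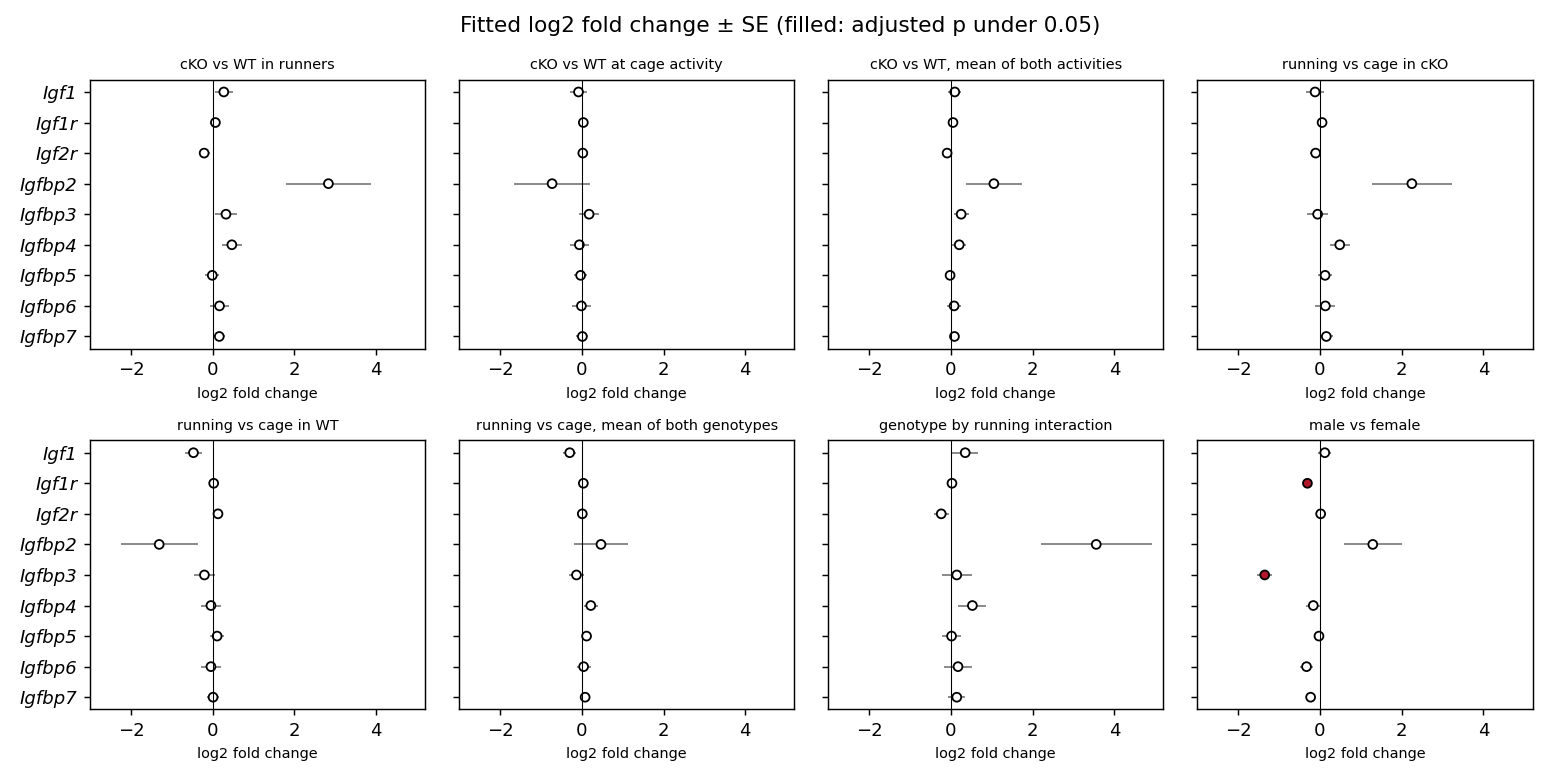
Fitted log2 fold change of the 9 genes in the 8 comparisons, as points with their standard errors as bars; filled points passed at an adjusted p under 0.05. Only Igfbp3 and Igf1r in the comparison of males with females are filled, and Igfbp2 has the widest bars.

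Igf1, the ligand gene, was lowest on average in WT runners. It stood at 76.1, 132 and 119.6 CPM in male and 125, 56.9 and 61.0 CPM in female cKO runners, and at 58.7, 119 and 88.7 CPM in male and 78.9, 64.7 and 61.6 CPM in female WT runners. In cage mice it stood at 116, 72.0 and 90.8 CPM in cKO males and 84.1, 116 and 135 CPM in cKO females, and at 142, 87.0 and 88.6 CPM in WT males and 152, 101.5, 102 and 80.6 CPM in WT females. The 4 groups overlapped, and the 3 WT running females had the narrowest range. Group means were 95.1 ± 34.1 CPM in cKO runners, 78.7 ± 23.0 CPM in WT runners, 102 ± 23.6 CPM in cKO cage mice and 108 ± 27.9 CPM in WT cage mice.

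Running against cage activity gave an Igf1 log2 fold change of -0.47 ± 0.22 in WT (95% interval -0.93 to -0.01, edgeR adjusted p = 0.479) and -0.12 ± 0.22 in cKO (-0.59 to 0.35, adjusted p = 0.858). The genotype by running interaction was 0.35 ± 0.31 (adjusted p = 0.746), so a difference between the genotypes was not shown. By sex, the mean running difference was -0.003 in males only and -0.56 in females only, and the sex by running interaction did not pass (0.56 ± 0.31, adjusted p = 0.453). On FPKM, the mean running difference of Igf1 changed sign to 0.07, with the median of all genes at 0.11 on that scale against 0.01 in the edgeR fit.

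Igf1r, the signalling receptor, was the steadiest of the 9 and did not differ detectably by genotype or activity. It averaged 58.4 ± 10.4 CPM in cKO runners, 55.5 ± 6.90 CPM in WT runners, 56.4 ± 9.28 CPM in cKO cage mice and 55.3 ± 6.10 CPM in WT cage mice. The 95% intervals of the log2 fold change were -0.12 to 0.26 for cKO against WT runners and -0.09 to 0.17 for running against cage activity averaged over the genotypes. Its spread within groups after the sex term was 0.13 on the log2 scale, smaller than that of all but 1.59% of tested genes. The spread of Igfbp2, 1.36, was larger than that of 98.4% of tested genes.

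Igf2r encodes the receptor that takes up IGF2 and mannose-phosphate-tagged enzymes for delivery to lysosomes. It stood at 159, 116 and 142 CPM in male and 169, 198 and 160.01 CPM in female cKO runners, and at 208, 192 and 144 CPM in male and 174, 192 and 181 CPM in female WT runners. At cage activity it averaged 169 ± 21.4 CPM in cKO mice and 166 ± 22.7 CPM in WT mice. The runners overlapped, with the lowest value in a cKO male and the highest in a WT male. The log2 fold change for cKO against WT runners was -0.21 ± 0.13 (95% interval -0.49 to 0.07, edgeR adjusted p = 0.527). Muscle fibre markers were lower in the fit in cKO runners, 10 of 10 negative with a median of -0.74, none passing. The Igf2r difference was -0.12 ± 0.09 with the muscle covariate, -0.09 ± 0.13 with the Schwann cell covariate and -0.12 without cKO running male replicate 2.

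Among the binding proteins, Igfbp4 was higher on average in cKO runners than in the other groups, without passing the test. IGFBP4 is known as an inhibitory binding protein that frees IGF when the protease PAPP-A cleaves it. It stood at 241, 324 and 223 CPM in male and 184, 130.3 and 233 CPM in female cKO runners, and at 103, 167 and 195 CPM in male and 169, 165 and 179 CPM in female WT runners. In cage mice it stood at 168, 78.0 and 103 CPM in cKO males and 199, 186 and 245 CPM in cKO females, and at 158, 138 and 175 CPM in WT males and 285, 136, 115.5 and 176 CPM in WT females. All 3 male cKO runners lay above all 3 male cKO cage mice and above all 3 male WT runners, while the females of the same groups overlapped. How many of all tested genes separate 3 against 3 libraries in this way was not counted.

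For Igfbp4 the log2 fold change was 0.47 ± 0.25 in cKO against WT runners (edgeR adjusted p = 0.46) and 0.49 ± 0.25 for running against cage activity in cKO (adjusted p = 0.388). In males only, running in cKO gave 1.18 ± 0.29 (adjusted p = 0.0805), and in females only -0.20 ± 0.30 (adjusted p = 1). The sex by running interaction did not pass (0.71 ± 0.30, adjusted p = 0.383). The muscle fibre sum was 9635 to 34580 CPM in male cKO runners against 50203 to 69329 CPM in male cKO cage mice. In male WT runners it was 24645 to 80602 CPM, overlapping male cKO runners. The Schwann cell sum was 272 to 484 CPM in male cKO runners against 52.8 to 73.5 CPM in male cKO cage mice. Mast cell, adipocyte and sheath sums were also higher without overlap in male cKO runners than in male cKO cage mice. Tenocyte, macrophage, endothelial and mural sums of these males overlapped. With the muscle markers as a covariate the difference was 0.25 ± 0.17 in cKO against WT runners and 0.15 ± 0.18 for running in cKO. With the Schwann cell markers it was 0.13 ± 0.23 in cKO against WT runners and 0.09 ± 0.24 for running in cKO, and with eGFP carriage 0.27 ± 0.35 and 0.34 ± 0.32 in the same order.

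Igfbp2, a secreted carrier abundant in other tissues, was too low in tendon for a firm comparison. Its counts were 13, 44 and 0 in male and 2, 11 and 81 in female cKO runners, and 6, 19 and 0 in male and 2, 0 and 1 in female WT runners. In cage mice they were 18, 10 and 5 in cKO males and 3, 2 and 6 in cKO females, and 16, 29 and 23 in WT males and 8, 6, 0 and 3 in WT females. The value of 81 counts, in cKO running female replicate 4, lay far above the other libraries. The fitted log2 fold change for cKO against WT runners was 2.83 ± 1.03 (edgeR adjusted p = 0.391), and without that library it was 1.31 ± 0.87 (adjusted p = 0.629). The interaction was 3.56 ± 1.36 (adjusted p = 0.672), and 1.98 ± 1.18 (adjusted p = 0.768) without it. Under the other alternatives the difference between cKO and WT runners ran from 0.15 ± 1.24 in limma-voom to 3.79 ± 1.14. The upper value was without cKO cage female replicate 3 and WT running male replicate 2. Males only gave 0.56 ± 1.14.

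**Figure D3:**
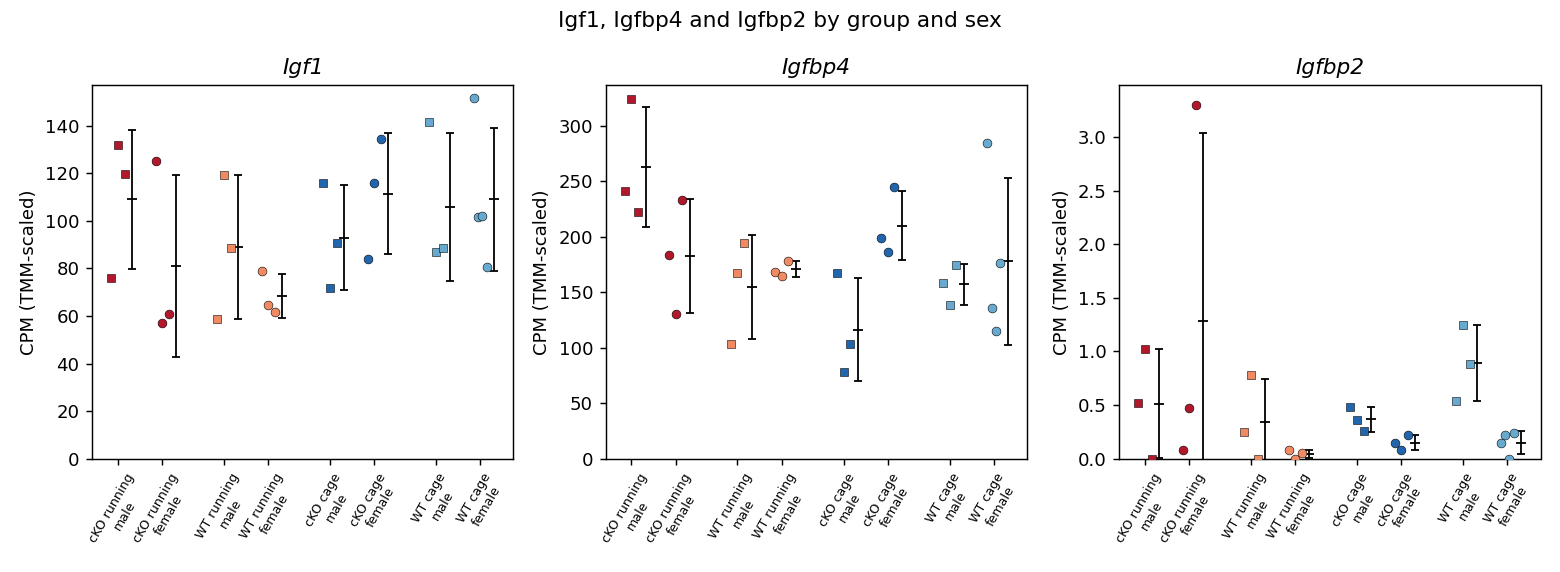
CPM of Igf1, Igfbp4 and Igfbp2 by group and sex, 1 point per library, with black lines for the mean and bars for 1 SD (for Igfbp2, bars are cut at 0). Male cKO runners lie above male cKO cage mice for Igfbp4, a separation whose share among all tested genes was not counted. For Igfbp2, 1 female cKO runner lies at 3.30 CPM.

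The 4 other binding proteins showed small differences by genotype and activity. Igfbp5, whose product binds extracellular matrix, averaged 680.1 ± 109 CPM in cKO runners, 684 ± 152 CPM in WT runners, 623 ± 129 CPM in cKO cage mice and 635 ± 97.4 CPM in WT cage mice. Igfbp6 averaged 191 ± 49.1 CPM in cKO runners, 169 ± 49.1 CPM in WT runners, 177 ± 74.5 CPM in cKO cage mice and 174 ± 49.7 CPM in WT cage mice. Igfbp7 averaged 189.8 ± 25.3 CPM in cKO runners, 171 ± 25.7 CPM in WT runners, 174 ± 50.2 CPM in cKO cage mice and 172 ± 30.1 CPM in WT cage mice. Igfbp3 averaged 64.9 ± 33.7 CPM in cKO runners, 51.0 ± 22.4 CPM in WT runners, 77.1 ± 58.8 CPM in cKO cage mice and 65.1 ± 40.1 CPM in WT cage mice. For running averaged over both genotypes, the log2 fold changes were 0.12 ± 0.12 for Igfbp5, 0.05 ± 0.17 for Igfbp6, 0.08 ± 0.11 for Igfbp7 and -0.13 ± 0.18 for Igfbp3. The 95% interval for Igfbp5 was -0.13 to 0.36. None of the 4 passed by genotype, running or interaction in edgeR, at adjusted p from 0.611 upward in runners.

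Sex was the factor along which IGF genes of the tendon passed the test. Igfbp3, the main carrier of IGF in blood and a local inhibitor of IGF action in tissues, was the member with the largest difference among those that passed. It stood at 26.1, 48.0 and 49.7 CPM in male and 117, 54.7 and 93.6 CPM in female cKO runners, and at 21.1, 35.9 and 45.5 CPM in male and 83.8, 51.4 and 68.0 CPM in female WT runners. In cage mice it stood at 33.8, 30.6 and 26.1 CPM in cKO males and 73.9, 159.5 and 139 CPM in cKO females, and at 36.8, 38.8 and 31.5 CPM in WT males and 147, 64.9, 56.1 and 80.8 CPM in WT females. Every male, at 21.1 to 49.7 CPM, lay below every female, at 51.4 to 159.5 CPM, a pattern shared by 0.0261% of tested genes.

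Averaged over groups, Igfbp3 was at 35.3 ± 9.05 CPM in males (n = 12) and 91.5 ± 37.2 CPM in females (n = 13). The log2 fold change was -1.35 ± 0.19 (95% interval -1.74 to -0.96, edgeR adjusted p = 0.000129). Of the 9 genes, 2 passed in the comparison of males with females, both lower in males, against 0.616% of all tested genes in either direction and 0.298% lower in males. At an unadjusted p under 0.05, Igfbp7 joined them, making 3 of 9 against 10.1% of all genes. Igfbp3 ranked 19th by p among all tested genes and 10th among the 103 autosomal genes that passed. Since tendon RNA comes from a mixture of cells, fewer cells of a type and less RNA per cell cannot be told apart.

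Within each group the Igfbp3 difference had the same sign. Males against females gave -1.10 ± 0.36 in cKO runners (edgeR adjusted p = 0.346), -0.99 ± 0.36 in WT runners (adjusted p = 0.79), -2.04 ± 0.37 in cKO cage mice (adjusted p = 0.0246) and -1.29 ± 0.34 in WT cage mice (adjusted p = 0.488). Igfbp3 was the 1 member of 9 that passed in cKO cage mice, where 0.0522% of all genes passed. In that group the muscle fibre sum was 50203 to 69329 CPM in males and 26955 to 40694 CPM in females. The Schwann cell sum was 52.8 to 73.5 CPM in males and 123 to 325 CPM in females, and neither sum overlapped between the sexes. Tenocyte, sheath and mast cell sums of that group were lower in males, again without overlap. For tenocyte markers the highest male and the lowest female stood at 14882.5 and 15300.8 CPM. How often such sums separate the sexes of a group was not counted. The macrophage, endothelial, mural and adipocyte sums of cKO cage mice overlapped. The part of these marker sums in the within-group Igfbp3 difference was not tested. No member passed in cKO runners (0.0835% of all genes), WT runners (0.0365%) or WT cage mice (0.0574%). The size of the sex difference was not shown to depend on running (interaction 0.62 ± 0.35, adjusted p = 0.458) or on genotype (-0.43 ± 0.35, adjusted p = 1).

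Igf1r was lower in males by a smaller and steadier amount. It stood at 56.6, 48.3 and 48.2 CPM in male and 61.1, 59.7 and 76.4 CPM in female cKO runners, and at 51.0, 46.4 and 55.6 CPM in male and 67.01, 56.1 and 56.7 CPM in female WT runners. In cage mice it stood at 44.1, 48.5 and 52.6 CPM in cKO males and 67.4, 63.1 and 62.5 CPM in cKO females, and at 49.6, 47.8 and 54.0 CPM in WT males and 56.1, 54.4, 59.4 and 66.0 CPM in WT females. In each of the 4 groups all males lay below all females, although males (44.1 to 56.6 CPM) and females (54.4 to 76.4 CPM) of different groups overlapped. The gap was narrow in WT runners (55.6 against 56.1 CPM) and in WT cage mice (54.0 against 54.4 CPM). The share of all tested genes with this pattern was not counted.

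Igf1r averaged 50.2 ± 3.81 CPM in males and 62.0 ± 6.11 CPM in females, a log2 fold change of -0.31 ± 0.06 (95% interval -0.44 to -0.17, edgeR adjusted p = 0.0144). This call was less firm than that of Igfbp3. It was lost without cKO cage female replicate 3 and WT running male replicate 2 (-0.29 ± 0.07, adjusted p = 0.0545) and with the Schwann cell markers as a covariate (-0.27 ± 0.07, adjusted p = 0.062). It was also lost on FPKM (adjusted p = 0.394) at a similar size, -0.30 ± 0.11.

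The bases before the start sites of Igfbp3 and Igf1r are shown because these are the members that passed. They are the 250 bases upstream of the RefSeq start on GRCm38.p6, 5′ to 3′ on the gene's strand, with GC boxes (GGGCGG on either strand) in capitals. The Igfbp3 window is chr11:7213924-7214173 (-) and the Igf1r window is chr7:67952007-67952256 (+), the RefSeq start of Igf1r lying upstream of the GENCODE start given above.
Igfbp3: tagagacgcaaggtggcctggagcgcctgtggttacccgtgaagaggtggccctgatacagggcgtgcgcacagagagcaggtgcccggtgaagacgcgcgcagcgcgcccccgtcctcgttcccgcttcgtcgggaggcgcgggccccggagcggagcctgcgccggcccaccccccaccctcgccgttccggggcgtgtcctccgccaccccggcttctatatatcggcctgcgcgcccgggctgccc
Igf1r: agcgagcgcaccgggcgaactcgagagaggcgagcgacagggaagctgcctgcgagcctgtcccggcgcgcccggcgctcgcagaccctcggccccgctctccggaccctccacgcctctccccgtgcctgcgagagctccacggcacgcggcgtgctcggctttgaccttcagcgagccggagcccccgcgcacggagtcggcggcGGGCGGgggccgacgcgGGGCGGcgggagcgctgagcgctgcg
Both windows are rich in G and C, 73.2% for Igfbp3 and 77.6% for Igf1r, against a median of 52.4% over 32851 windows of the same length. Igf1r holds 2 GC boxes close to its start site and Igfbp3 holds none, while 32.7% of all windows hold at least 1. Neither window holds the exact TATA box letters TATAAA (in 12.4% of windows) on either strand. The Igfbp3 window does hold the similar letters TATATAT near its start site, a form that was not searched for. Neither window holds a full palindromic oestrogen response element (in 0.0639%) or a full palindromic androgen response element (in 0.00913%) on either strand. The search covered these letters in these windows and nothing further.

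**Figure D4:**
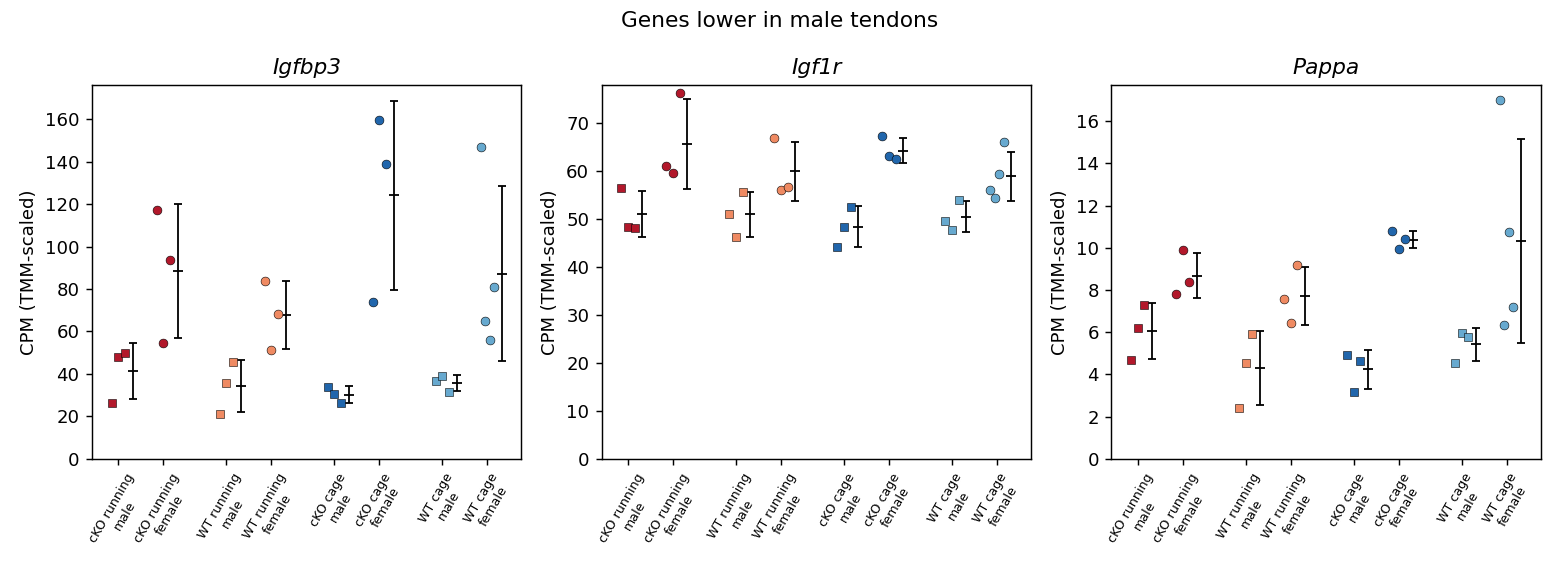
CPM of Igfbp3, Igf1r and the IGFBP protease gene Pappa by group and sex, 1 point per library (squares males, circles females), with black lines for the mean and bars for 1 SD. For Igfbp3 every male lies at or below 49.7 CPM and every female at or above 51.4 CPM. For Igf1r the males lie below the females in each group, by narrow gaps in WT runners and WT cage mice. The share of all tested genes with this pattern within groups was not counted.

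The other members did not pass by sex. Igfbp7 averaged 163 ± 27.1 CPM in males and 189 ± 33.8 CPM in females (log2 fold change -0.23 ± 0.11, edgeR adjusted p = 0.4663), and Igfbp6 averaged 157 ± 42.8 CPM in males and 197 ± 56.3 CPM in females (-0.33 ± 0.17, adjusted p = 0.543). With the sheath markers as a covariate Igfbp6 changed sign to 0.006 ± 0.12 and Igfbp7 was -0.16 ± 0.12, and with the Schwann cell markers Igfbp7 was -0.15 ± 0.11. Igfbp2 had a positive log2 fold change of 1.29 ± 0.71 (adjusted p = 0.58). Igf1 (0.12 ± 0.16), Igf2r (0.02 ± 0.09), Igfbp4 (-0.16 ± 0.17) and Igfbp5 (-0.02 ± 0.12) had adjusted p values from 0.825 to 0.976. In cKO cage mice alone, Igfbp4 (-0.85 ± 0.31), Igfbp6 (-0.83 ± 0.34) and Igfbp7 (-0.64 ± 0.20) had negative differences that did not pass (adjusted p = 0.427, 0.456 and 0.377).

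Marker lists of other cell types differed in sign by sex, although no single Schwann cell, sheath, macrophage or mast cell marker passed the test. None of 7 Schwann cell markers had a positive log2 fold change in males, with a median of -1.14 and summed levels of 52.8 to 484 CPM in males and 67.2 to 1430 CPM in females. Likewise 0 of 7 sheath and progenitor fibroblast markers (median -0.31, 775 to 3890 CPM in males and 621 to 4154 CPM in females), 0 of 8 macrophage markers (-0.27, 194 to 607 CPM in males and 175 to 694 CPM in females) and 0 of 5 tested mast cell markers (-0.86, 8.66 to 54.2 CPM in males and 11.3 to 56.1 CPM in females) were positive. No Schwann cell, sheath or macrophage marker was at 0 in any library. With the sheath markers as a covariate the Igfbp3 difference was -1.01 ± 0.15 (edgeR adjusted p = 0.000564), with the Schwann cell markers -1.23 ± 0.19 (adjusted p = 0.000731) and with the muscle markers -1.26 ± 0.15 (adjusted p = 1.27e-05). No fit had macrophage or mast cell markers as a covariate. Across the 25 libraries Igfbp3 had r = 0.47 and rho = 0.47 with the macrophage markers (adjusted permutation p = 0.0353 and 0.0436; r = 0.84 after removing group and sex means, r = 0.61 without the 2 farthest libraries). With the mast cell markers it had r = 0.58 and rho = 0.60 (adjusted permutation p = 0.00869 and 0.00905; r = 0.63 without the 2 farthest libraries).

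Other lists did not run one way. In males against females 7 of 10 muscle fibre markers (median log2 fold change 0.31), 5 of 7 endothelial markers (0.13), 4 of 6 adipocyte markers (0.16) and 3 of 8 mural and smooth muscle markers (-0.14) were positive. Of 8 tenocyte markers 3 were positive (median -0.19), and 1 was lower in males by the test, the matrix gene Tnc (-0.82 ± 0.19, edgeR adjusted p = 0.0364), named here after its value was seen.

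Around the 9 genes, 2 lists of the pathway were tested: 16 genes of IGF availability and other ligands, of which 13 passed the filter, and 32 genes of insulin and IGF receptor signalling, of which 31 did. By sex, 1 gene of each list passed. In the availability list 4 of 13 were positive in males with a median log2 fold change of -0.27, in the signalling list 17 of 31 with a median of 0.02, and among all tested genes 9462 of 19155 with a median of -0.003.

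The availability gene that passed was Pappa, whose product pappalysin cleaves IGFBP4 and so frees IGF. Pappa ranged from 2.41 to 7.29 CPM in males (median 4.79) and from 6.35 to 17.0 CPM in females (median 9.19). It averaged 4.999 ± 1.35 CPM in males and 9.36 ± 2.78 CPM in females (log2 fold change -0.90 ± 0.16, edgeR adjusted p = 0.00316), and the call was lost on log2(FPKM + 1) at -0.37 ± 0.09 (adjusted p = 0.109) and on log2(FPKM + 0.1) at -0.84 ± 0.20 (adjusted p = 0.089). The ranges overlapped only between 6.35 and 7.29 CPM. In each of the 4 groups the males lay below the females, a pattern whose share among all tested genes was not counted.

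The signalling gene that passed was Foxo3, a transcription factor that AKT holds out of the nucleus when insulin or IGF signals. Foxo3 ranged from 43.1 to 59.7 CPM in males (median 46.9) and from 55.4 to 74.5 CPM in females (median 62.7). It averaged 48.1 ± 4.67 CPM in males and 62.7 ± 4.86 CPM in females (-0.38 ± 0.06, edgeR adjusted p = 0.000886), and the call was lost on log2(FPKM + 1) at -0.49 ± 0.18 (adjusted p = 0.396).

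By running, averaged over both genotypes, 0 of 13 availability genes and 1 of 31 signalling genes passed. That gene was Grb10, an adaptor that binds the insulin and IGF1 receptors and dampens their signal. Grb10 stood at 59.1, 57.1 and 62.5 CPM in male and 92.0, 99.4 and 75.3 CPM in female cKO runners, and at 78.0, 72.7 and 48.7 CPM in male and 81.3, 88.4 and 76.7 CPM in female WT runners. At cage activity it stood at 87.4, 109 and 97.0 CPM in cKO males and 109, 94.6 and 106 CPM in cKO females, and at 93.5, 91.2 and 102 CPM in WT males and 74.7, 110.1, 123 and 109 CPM in WT females. Every male runner lay below every male cage mouse, and the females overlapped. The share of all tested genes with such a separation was not counted.

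Grb10 fell to 74.3 ± 15.2 CPM in runners (n = 12), against 100.5 ± 12.5 CPM in cage mice (n = 13), a log2 fold change of -0.44 ± 0.09 (edgeR adjusted p = 0.0123). The difference was -0.46 ± 0.13 in cKO (adjusted p = 0.165) and -0.42 ± 0.13 in WT (adjusted p = 0.208), and the genotypes were not shown to differ (interaction -0.04 ± 0.18, adjusted p = 0.962). The call was lost on FPKM (-0.19 ± 0.09, adjusted p = 0.319) and in females only (-0.27 ± 0.12, adjusted p = 0.6), while males only gave -0.61 ± 0.12 (adjusted p = 0.0497). Covariates for eGFP carriage, mitochondrial ribosomal RNA, Schwann cell markers and sheath markers also ended the call, with adjusted p of 0.172, 0.0977, 0.0618 and 0.132 and differences of -0.45 to -0.36. In the 6 other comparisons, no gene of either list passed, and medians of the availability list ran from -0.05 to 0.21 and of the signalling list from -0.13 to 0.02.

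Several members followed the muscle fibre content of the libraries, and other marker lists too. Across 25 libraries Igf2r rose with the log2 of the summed CPM of 10 muscle fibre genes (Pearson r = 0.95, Spearman rho = 0.91). Permutation p was 1e-05 for each, the smallest that 100000 permutations can give (adjusted p = 0.000162 and 0.000202 over 81 relations). Pearson r was 0.90 without the 2 libraries farthest from the median of the muscle level, and 0.95 after removing group and sex means. Igfbp4 ran the other way (r = -0.80, rho = -0.80, permutation p = 1e-05 for each, adjusted p = 0.000162 and 0.000202 over the same relations), with r = -0.73 without the 2 farthest libraries. Igf1 (r = -0.56, rho = -0.51), Igfbp5 (-0.60 and -0.71), Igfbp6 (-0.53 and -0.63), Igfbp7 (-0.65 and -0.66) and Igfbp3 (-0.45 and -0.46) were also lower where muscle RNA was higher, with adjusted permutation p from 0.00287 to 0.0456 for r and r from -0.67 to -0.40 without the 2 farthest libraries. Igf1r showed r = -0.10 and rho = -0.22 (adjusted permutation p = 0.811 and 0.378). Other marker lists ran with the members as closely, all over the same 81 relations. Igf2r had r = 0.91 and rho = 0.82 with the mural and smooth muscle markers, Igfbp6 had r = 0.79 and rho = 0.80 with the macrophage markers, and Igfbp4 had r = 0.79 and rho = 0.76 with the mast cell markers (adjusted permutation p = 0.000162 for each r and at most 0.000324 for rho). Without the 2 farthest libraries r was 0.82, 0.79 and 0.74. In cKO against WT runners 7 of 8 mural markers were positive in the fit, yet the median mural sum was 2393 against 2989 CPM. The mural sum therefore need not follow most of its markers. Whether its relation to Igf2r is separate from that of the muscle fibre sum was not tested. CPM of all genes of a library share 1 denominator, which includes the muscle transcripts.

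**Figure D5:**
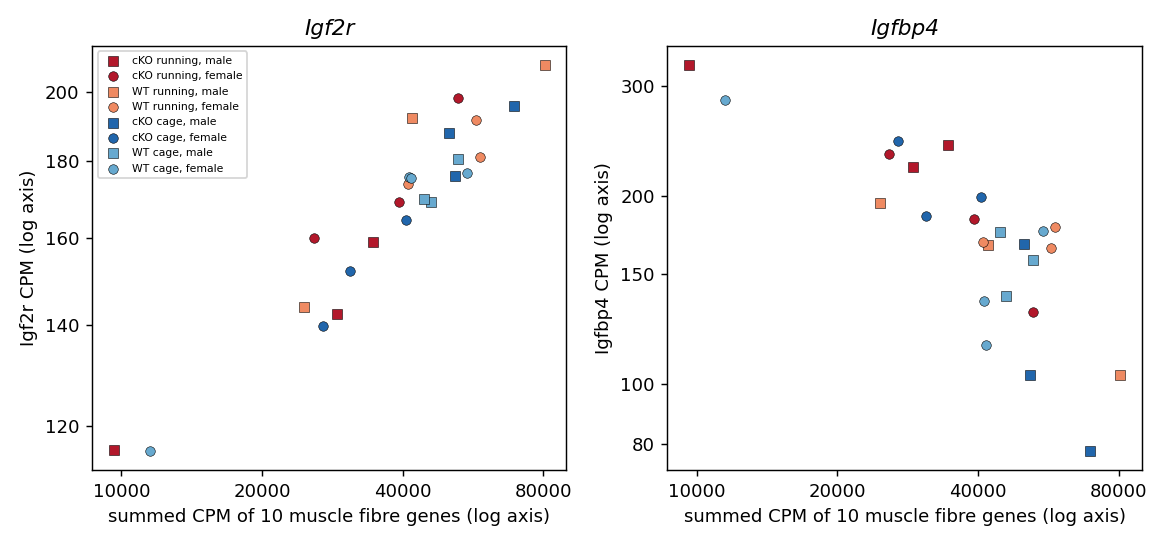
CPM of Igf2r and Igfbp4 (log axes) against the summed CPM of 10 muscle fibre genes in each of 25 libraries, coloured by group with squares for males and circles for females. Igf2r rises and Igfbp4 falls along the muscle sum, and the libraries at 9635 and 11494 CPM of muscle RNA hold the lowest Igf2r and the highest Igfbp4 values.

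Among themselves, with group and sex means removed, the closest pairs were Igfbp3 with Igfbp6 (r = 0.86), Igfbp4 with Igfbp7 (r = 0.81) and Igfbp5 with Igfbp6 (r = 0.79), and Igf2r ran against Igfbp4 (r = -0.81). Igfbp3 and Igf1r, both lower in males, had r = 0.66 over all 25 libraries and r = 0.02 once group and sex means were removed. The gene most alike in log2 CPM over the 25 libraries was Kif5c for Igf1r (r = 0.83), Bin1 for Igf2r (0.95), Cenps for Igfbp2 (0.68) and Egfl6 for Igfbp3 (0.88). For the remaining binding proteins it was Cavin3 for Igfbp4 (0.89), Ankfy1 for Igfbp5 (0.88), Serpinf1 for Igfbp6 (0.93) and Fzd2 for Igfbp7 (0.87). These correlations are descriptions over libraries that share groups, sex and muscle content.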

How the data were processed

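RNA from 25 Achilles tendons was prepared with TRIzol, spin columns and the UltraExpress kit, per the labels' protocols. The submitters' processing notes name cutadapt 2.3, FastQC 0.11.8, STAR 2.7.8a, RSEM 1.3.3 and GRCm38; roles and strand setting are not given in the sources used here. The authors deposited expected counts per gene, all whole numbers, and FPKM values; 4 reporter and transgene entries beside the 55487 genes were kept out of library sizes and tests.

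Counts were tested in edgeR 4.0.16 (R 4.3.3): TMM scaling, filterByExpr on the 4 groups (19155 genes), quasi-likelihood F-test with 4 group means plus sex over all 25 libraries, Benjamini-Hochberg adjustment over all tested genes, two-sided, called under 0.05. This one fit gave 8 comparisons; sex differences within groups and sex interactions came from a fit of 8 group means added after seeing the data. CPM are TMM-scaled, with log2 CPM at a prior count of 2; intervals use 20 residual degrees of freedom. Errors are SD for levels and SE for fold changes. The members, marker lists and pathway lists were chosen with earlier results of these data known.

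Named genes are the 9 members, list genes called in any comparison, Igf2, Igfbp1, the targeted gene and the gene most correlated with each member (that for Igf1 is not reported here). Alternatives were RLE size factors, other filters, DESeq2 1.42.0, limma 3.58.1 (voom with quality weights, and log2 FPKM + 1 or + 0.1), no sex term, a replicate block, marker, reporter and mitochondrial rRNA covariates, and left-out libraries. The Schwann cell and sheath covariates were not planned, unlike the muscle, eGFP and mitochondrial rRNA covariates. The sources used here state no pairing by replicate number. Of 22 same-numbered pairs, 3 correlated above 0.1, which cannot show whether libraries were paired, since pairs of different numbers were not compared. On simulated counts (19155 genes), the male against female test recovered 63 of 100 genes changed 2-fold and 96 of 100 changed 4-fold. The runners' genotype test recovered 60 of 100 and 78 of 100. The interaction test recovered fewer, 33 of 100 and 70 of 100. Intervals of fold changes carry the spread between libraries, and floors of 3 counts cover counting error only.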

Additional observations from a re-analysis of the deposited data

Results flagged for a closer look

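In groups of 6 or 7 libraries, 6 of 36 gene and group combinations had 1 library standing apart by Dixon's test at its 95% critical value, where chance gives about 1 in 20. WT cage female replicate 1 stood apart for Igf2r at 115.4 CPM (next 169 CPM), for Igfbp3 at 147 CPM (next 80.8 CPM) and for Igfbp4 at 285 CPM (next 176 CPM). That library had the lowest muscle fibre sum of its group, 11494 CPM. Igfbp4 in WT running male replicate 1 stood at 103.2 CPM (next 165 CPM), and that library had the highest muscle fibre sum of all, 80602 CPM. For Igfbp2, cKO running female replicate 4 stood at 3.30 CPM (81 counts, next 1.02 CPM) and WT running male replicate 2 at 0.784 CPM (19 counts, next 0.250 CPM). The part of muscle content in these values was not tested.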

How the results depend on the processing

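Over 3286 alternative values of the 9 members, 3228 kept their sign or moved by less than their standard error and none of the called values changed sign. A kept sign can hide a large shift in size, as for Igfbp2 in cKO against WT runners (2.83 in edgeR, 0.15 in limma-voom). Uncalled values changed sign 243 times. No member passed by genotype, running or their interaction under any alternative run or any left-out library. Igfbp3 stayed lower in males, and called, without each of the 25 libraries in turn (-1.42 to -1.25) and under all 16 other alternatives run for it (-1.46 to -1.01, adjusted p at most 0.00733). Igf1r was called without each library in turn and in 10 of 16 other alternatives; besides those given above, it was lost with no filter (adjusted p = 0.164), with log2 FPKM + 0.1 (0.383) and with the mitochondrial rRNA covariate (0.057). Leaving out 1 library gave 0 to 2 genes for genotype in runners, 0 to 0 at cage activity, 0 to 2 for the mean genotype difference, 3 to 60 for running in cKO (60 without WT cage female replicate 1, 3 without cKO cage female replicate 1), 11 to 39 for running in WT (11 without WT running male replicate 2, 39 without cKO running male replicate 2), 127 to 568 for mean running (127 without WT running male replicate 2, 568 without WT cage female replicate 1), 0 to 0 for the interaction and 86 to 132 for sex. 

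The number of genes called over the whole table was 0 for genotype in runners, 0 at cage activity, 1 for the mean genotype difference, 8 for running in cKO, 25 for running in WT, 273 for mean running, 0 for the interaction and 118 for sex, and in the same order it moved as follows where it moved by over 1.5 times. With no filter it was 282, 4, 91, 574, 197, 715, 65 and 445 (887 for sex by running and 111 for sex by genotype). DESeq2 gave 2 for mean genotype, 208, 157 and 637 for the running comparisons and 251 for sex, and limma-voom gave 0, 384, 90, 912 and 442. On log2 FPKM + 1 it was 1 in runners, 0 for mean genotype, 5 for running in cKO, 155 for mean running and 41 for sex, and on log2 FPKM + 0.1 it was 0 for mean genotype, 3, 14 and 147 for running and 46 for sex. The replicate block gave 0 for mean genotype and 1, 12 and 148 for running, and changed no call of a member. The muscle covariate gave 267 for running in WT and 184 for sex, the eGFP covariate 0 for mean genotype and 0, 16 and 11 for running, and the mitochondrial rRNA covariate 5 for running in cKO and 61 for mean running. The Schwann cell covariate gave 0 for mean genotype and 115 for mean running, and the sheath covariate 0 for mean genotype, 3 for running in cKO, 34 for mean running and 76 for sex. Without the 2 libraries of the less common project code it was 3, 12 and 127 for running, and without the libraries apart on the second component 0 for mean genotype, 16 for running in cKO and 6 in WT. Without cKO cage female replicate 3 and WT running male replicate 2 it was 2 in runners, 2 for mean genotype and 4, 10 and 135 for running. Females only gave 0 for mean genotype and 0, 1 and 8 for running, and males only 0 for mean genotype and 30, 3 and 102. The cause of these moves was not tested. The less common project code is on cKO cage male replicate 3 and WT cage female replicate 4. No runner carries it, so this code and running are partly confounded. FPKM is not TMM-scaled, and the median log2 fold change of all genes for running in cKO was 0.27 on log2 FPKM + 0.1 against 0.03 in edgeR. Depth limits Igfbp2 the most, with at most 81 counts per library.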
